A study of Mus musculus with 13 samples.

Results

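H3K4me3 called peaks were compared between neural stem cells (NSCs) and oligodendrocyte precursor cells (OPCs). All listed peaks of the 2 libraries were used, 33292 in NSCs and 18284 in OPCs, which are 51576 of the 73312 H3K4me3 peaks in the lists of the series. A peak was shared when at least 1 bp of it lay in a peak of the other list, and each gene was described by the length covered by peaks within 2 kb of its transcription start sites (TSSs). The series holds 13 samples, with 1 library per condition, and follows OLIG2 binding and the marks H3K4me3 and H3K27me3 as NSCs form OPCs and newly formed oligodendrocytes (NFOs).

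The NSCs were untreated cells that were bought from a supplier. They came from the cortex at E14.5 and were grown as a culture in medium with EGF and FGF. The growth protocol gives their strain as CD-1, and the strain label gives C57BL/6. The OPCs were untreated C57BL/6 cells purified from brains at postnatal day 7. They were not cultured: cells that bound a lectin (BSL-1), which removes microglia and endothelial cells, were discarded, and OPCs were then captured on plates with an antibody against PDGFRα. The peak names show single-end reads for NSCs and paired-end reads for OPCs. Stage, age, part of the brain (cortex against brain), culture, read type and, by the growth protocol, strain therefore differ together and cannot be told apart. With 1 library a side no value below has an error between replicates and no difference was tested. Intervals are exact binomial (Clopper-Pearson) 95% intervals, which cover counting error only.

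H3K4me3 is trimethylation of lysine 4 of histone H3. It is laid down by methyltransferases of the SET1 and MLL families and sits around the start sites of genes that are transcribed or ready to be, above all where the DNA is rich in CG dinucleotides. Its width varies between genes, and wide domains are known from genes that define a cell type. During oligodendrocyte formation, neural stem cells give rise to dividing OPCs, which carry PDGFRα and NG2 and later stop dividing and make myelin.

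The antibody label of both libraries names H3K27me3, while the titles name H3K4me3, and the titles were used. In NSCs, 50.9% of the peaks of the H3K4me3 list lay within 2 kb of a TSS, against 11.9% for the H3K27me3 list. The same shares were 74.8% and 19.8% in OPCs. The lists thus lay near TSSs where the titles put H3K4me3. The lists give fold enrichment over control and no read counts, so the depth of the libraries is unknown. The highest −log10 q was 71.4 in NSCs and 1248 in OPCs, which shows that significance was not on a common scale.

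Most OPC peaks lay where NSCs had a peak, and fewer NSC peaks had a counterpart in OPCs. Of the 18284 OPC peaks, 15077 were overlapped by an NSC peak (82.5%, interval 81.9% to 83.0%). Of the 33292 NSC peaks, 14733 were overlapped by an OPC peak (44.3%, interval 43.7% to 44.8%). Peaks covered 37.9 Mb in NSCs and 21.4 Mb in OPCs, and 19.05 Mb was covered in both. This was 50.3% of the NSC length and 88.8% of the OPC length. Of the 18.9 Mb covered in NSCs alone, 11.96 Mb (63.4%) were flanks of shared peaks, so much of the difference lay in the width of common peaks.

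Peaks listed in 1 stage were narrow. The 18559 peaks of NSCs alone had a median width of 243 bp (quartiles 190 and 356), and the 14733 shared NSC peaks a median of 1953 bp (quartiles 1245 and 2729). The 3207 peaks of OPCs alone had a median of 220 bp (quartiles 193 and 461), against 1173 bp (quartiles 692 and 1744) for the 15077 shared OPC peaks. Median fold enrichment was 3.81 for NSC-only and 8.02 for shared NSC peaks, and 3.84 for OPC-only and 6.16 for shared OPC peaks. The plot of widths shows a narrow and a wide population in each list, with the peaks of 1 stage mostly in the narrow one.

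**Figure D1:**
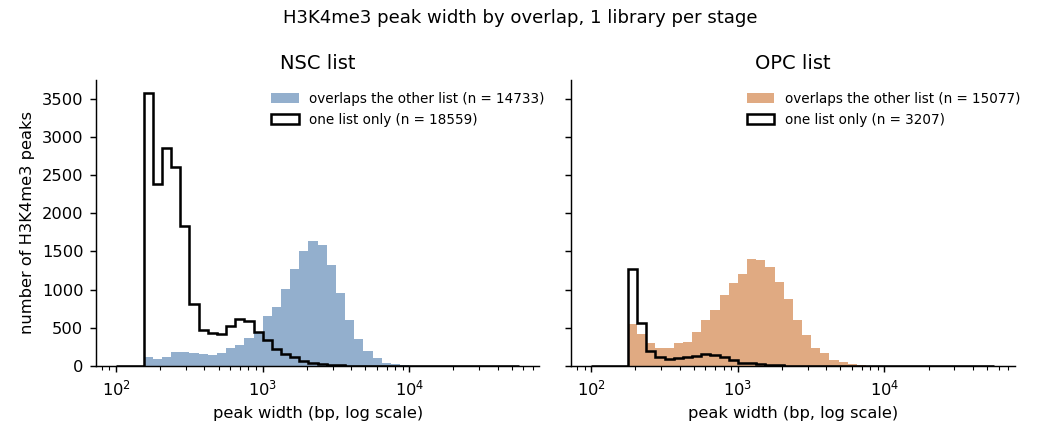
Number of H3K4me3 peaks (vertical axis) by peak width in bp on a log scale (horizontal axis), in the NSC list (left) and the OPC list (right). Filled bars are peaks that overlap the other list by at least 1 bp and the black outline is peaks of 1 list only; the medians are 1953 and 243 bp in NSCs and 1173 and 220 bp in OPCs.

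Sharing followed width and enrichment. Of NSC peaks under 250 bp, 3.98% were shared, and of those between 2000 and 4000 bp, 98.0%. For OPC peaks the same shares were 36.1% and 99.3%. An NSC peak with a fold enrichment of at most 4 was shared in 8.82% of cases and one above 10 in 98.5%. Of NSC-only peaks, 22.5% lay within 2 kb of a TSS, against 86.6% of shared NSC peaks. In OPCs these shares were 20.99% and 86.2%. Only 1019 of the 18559 NSC-only peaks and 140 of the 3207 OPC-only peaks were 1 kb or wider, and of these 505 and 100 lay within 2 kb of a TSS.

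One-stage peaks also lay in DNA poorer in CG. The median number of CG dinucleotides per 100 bp was 0.755 in NSC-only and 4.27 in shared NSC peaks, and 1.25 in OPC-only and 5.41 in shared OPC peaks. Among one-stage peaks of at least 1 kb it was 2.29 in NSCs and 2.15 in OPCs, which lies between the narrow one-stage peaks and the shared ones.

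Genes were described by covered bp, the number of bp of a 4000 bp window around a TSS that lay in called peaks, taken at the best covered TSS of each gene. The value cannot exceed 4000 bp, so differences beyond a full window are not seen. Of 32093 protein-coding and lncRNA genes of GENCODE M21, 15209 were covered in both stages, 14911 in neither, 410 in OPCs only (gained) and 1563 in NSCs only (lost). Gained genes made up 1.28% and lost genes 4.87% of all genes. The shares were alike in both kinds of gene: 280 of 21938 protein-coding genes (1.28%) and 130 of 10155 lncRNAs (1.28%) were gained, and 1059 (4.83%) and 504 (4.96%) were lost.

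Where both stages had H3K4me3, it was narrower in OPCs at most genes. The median over the 15209 genes was 2233 bp in NSCs and 1385 bp in OPCs, and the median difference, OPC minus NSC, was -694 bp (quartiles -1134 and -323). Covered bp were higher in OPCs at 1275 of these genes (8.38%). The 22 housekeeping genes of a fixed list, among them Actb with 4000 bp in NSCs and 2487 bp in OPCs and Gapdh with 3107 and 1408 bp, had a median difference of -1161 bp, and 21 of 22 were lower in OPCs. This general difference moves with the read type, and its part in the result was not tested. Single genes are therefore read against the median of -663 bp over all 17182 genes covered in either stage.

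**Figure D2:**
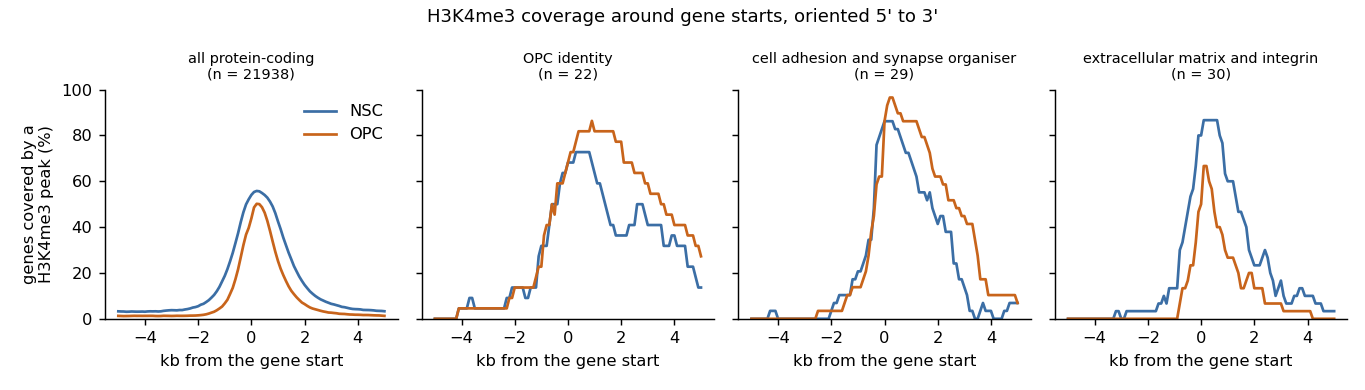
Share of genes (vertical axis, percent) whose DNA lies in an H3K4me3 peak at each distance from the annotated gene start (horizontal axis, kb, transcription running to the right), in NSCs (blue) and OPCs (orange), 1 library each. Over all 21938 protein-coding genes 42.5% were covered 1 kb downstream in NSCs and 25.2% in OPCs; for the 22 OPC identity genes these shares were 63.6% and 81.8%, for the 29 adhesion and synapse genes 69.0% and 86.2%, and for the 30 extracellular matrix and integrin genes 60.0% and 26.7%.

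In bulk lists such as these, fewer cells with the mark and less of it per cell cannot be told apart. A stricter call asked for at least 1000 covered bp in 1 stage and 0 in the other. It left 67 gained genes (0.209% of all genes), 51 protein-coding and 16 lncRNAs, and 412 lost genes (1.28%), 329 protein-coding and 83 lncRNAs. The narrowest member inside the call had 1002 bp and the widest outside had 992 bp for gained genes, and 1001 and 996 bp for lost genes. When only the 18284 NSC peaks with the highest −log10 q were used, the counts became 298 gained and 222 lost. That setting shortens the NSC list alone, so all 67 gained genes had to stay gained. Lost genes could only become fewer, and 222 of the 412 stayed. No gene's difference can fall in it, so it cannot show which call is firmer. With a fold enrichment above 5 asked of both lists, 32 of the 67 and 179 of the 412 kept their call. A difference of at least 1000 bp, whatever the level in the other stage, was higher in OPCs at 179 genes (0.558%) and lower at 5234 genes (16.3%).

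**Figure D3:**
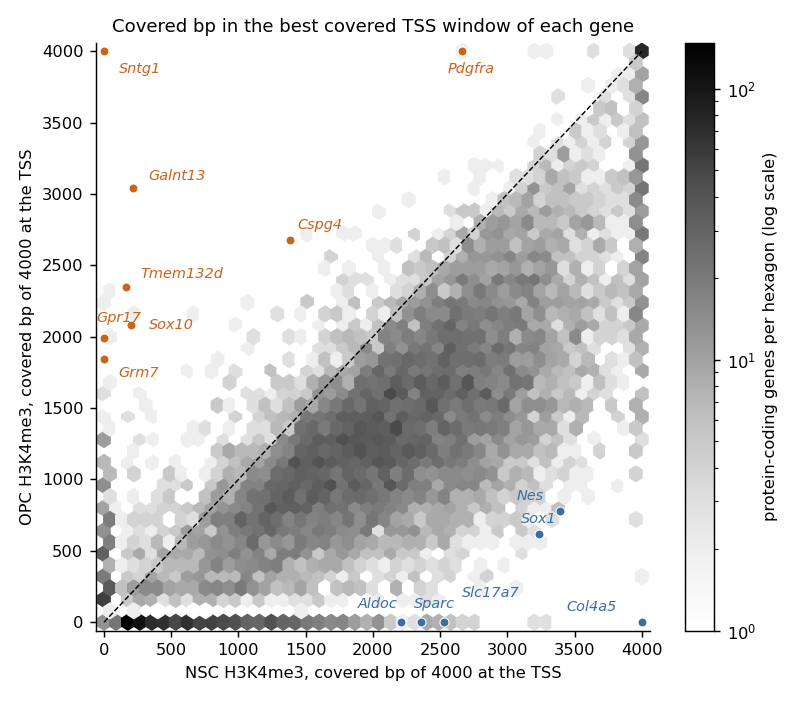
Covered bp of 4000 at the best covered TSS in NSCs (horizontal axis) and OPCs (vertical axis) for protein-coding genes covered in either stage, 1 library each; grey hexagons give the number of genes on a log scale and the dashed line marks equal values. Most genes lie under the line, named genes higher in OPCs are orange (Sntg1 with 0 and 4000 bp, Sox10 with 201 and 2080 bp) and named genes lower in OPCs are blue (Col4a5 with 4000 and 0 bp, Nes with 3388 and 777 bp).

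Promoter sequence is shown for the first gained and lost genes that have one in RefSeq (GRCm38.p6), with Cspg4 and Nes as genes that keep the mark and differ in width. Each run is the 250 bases upstream of a start site, written 5′ to 3′ on the strand of the gene, with CG dinucleotides in capitals because H3K4me3 follows them. Asic2 lies on chromosome 11 (81152904 to 81153153, minus strand), Akap6 on 12 (52699133 to 52699382, plus), Col4a5 on X (141475169 to 141475418, plus), Ephb4 on 5 (137349859 to 137350108, plus), Cspg4 on 9 (56864854 to 56865103, plus) and Nes on 3 (87970843 to 87971092, plus).
Asic2: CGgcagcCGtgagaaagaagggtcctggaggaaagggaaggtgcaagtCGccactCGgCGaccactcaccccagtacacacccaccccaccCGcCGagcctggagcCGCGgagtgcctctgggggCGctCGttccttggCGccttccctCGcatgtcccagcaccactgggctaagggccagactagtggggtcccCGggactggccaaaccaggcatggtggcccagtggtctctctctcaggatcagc
Akap6: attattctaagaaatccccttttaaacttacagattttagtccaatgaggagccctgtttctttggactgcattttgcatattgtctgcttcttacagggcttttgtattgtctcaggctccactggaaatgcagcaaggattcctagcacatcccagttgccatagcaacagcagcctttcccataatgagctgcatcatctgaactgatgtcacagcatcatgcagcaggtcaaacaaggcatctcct
Col4a5: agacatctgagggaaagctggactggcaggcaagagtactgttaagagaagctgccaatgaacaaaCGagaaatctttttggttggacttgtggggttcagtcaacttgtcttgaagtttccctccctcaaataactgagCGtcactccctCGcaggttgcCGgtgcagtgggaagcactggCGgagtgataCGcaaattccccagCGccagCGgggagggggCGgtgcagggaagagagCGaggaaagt
Ephb4: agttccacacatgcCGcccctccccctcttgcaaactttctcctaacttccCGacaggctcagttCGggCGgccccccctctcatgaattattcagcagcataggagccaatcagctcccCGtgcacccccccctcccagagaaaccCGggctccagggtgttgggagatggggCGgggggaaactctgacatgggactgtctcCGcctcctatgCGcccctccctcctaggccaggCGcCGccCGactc
Cspg4: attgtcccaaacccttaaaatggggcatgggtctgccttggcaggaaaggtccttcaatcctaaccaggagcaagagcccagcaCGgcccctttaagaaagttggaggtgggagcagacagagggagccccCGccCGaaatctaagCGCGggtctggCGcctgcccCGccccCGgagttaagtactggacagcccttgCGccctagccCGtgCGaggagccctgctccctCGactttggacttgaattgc
Nes: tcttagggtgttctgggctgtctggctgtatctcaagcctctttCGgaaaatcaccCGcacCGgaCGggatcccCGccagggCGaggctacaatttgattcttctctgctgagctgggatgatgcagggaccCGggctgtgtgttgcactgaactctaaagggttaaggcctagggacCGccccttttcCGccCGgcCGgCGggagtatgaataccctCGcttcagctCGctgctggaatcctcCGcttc
The stretch of Asic2 holds 14 CG dinucleotides and that of Akap6 0, and in both all 250 bp were covered in OPCs and 0 in NSCs. Those of Col4a5 (10 CG) and Ephb4 (12 CG) were covered over 250 bp in NSCs and 0 in OPCs. In Cspg4 (12 CG) 250 bp were covered in both stages, and in Nes (15 CG) 250 bp in NSCs and 235 bp in OPCs. The gained promoters thus span a start site with no CG and one with many.

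By their medians, gained and lost protein-coding genes had fewer CG dinucleotides than genes covered in both stages. Within 500 bp of the TSS the median was 3.10 CG per 100 bp (quartiles 1.80 and 5.45) for the 51 gained genes and 4.70 (quartiles 3.20 and 6.70) for the 329 lost genes. It was 6.50 (quartiles 4.70 and 8.50) for the 13055 genes covered in both and 0.90 (quartiles 0.40 and 1.60) for the 7544 covered in neither. Gained and lost genes lay between those 2 groups. The TSS was the best covered one in OPCs for gained genes and in NSCs for lost genes and genes covered in both. For genes covered in neither it was the annotated gene start, so the groups were not measured at the same kind of start.

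The 10 gained protein-coding genes with the widest H3K4me3 had 2016 to 4000 covered bp in OPCs. Sntg1, which encodes a syntrophin that anchors membrane proteins, had 0 bp in NSCs and all 4000 bp in OPCs, under a peak of 5894 bp with a fold enrichment of 6.48 (chromosome 1, 9294663 to 9300556). Slitrk4 and Slitrk6, transmembrane proteins that act on neurite growth and synapses, had 0 bp in NSCs and 3119 and 2195 bp in OPCs. Asic2, an acid-sensing sodium channel, had 0 and 2782 bp, and Akap6, an anchor of protein kinase A, 0 and 2459 bp. Cdh8, a cadherin, had 0 and 2404 bp, and Gpr37l1, a receptor of glial cells, 0 and 2334 bp. These were followed by St8sia3, a sialyltransferase, with 2306 bp, A930009A15Rik with 2196 bp and Tmem132c with 2016 bp in OPCs and 0 in NSCs. The call was lost at Slitrk4 and Cdh8 when a fold enrichment above 5 was asked, and at St8sia3 and Asic2 when the annotated gene start alone was used.

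Behind these 10 came Gpr17, a receptor of OPCs about to differentiate, with 0 bp in NSCs and 1991 bp in OPCs, in an OPC-only peak of 7223 bp, the widest of all OPC-only peaks. Further gained protein-coding genes of at least 1000 bp are listed in order of covered bp: Nkx6-1, Grm7, Ntf3, Tmem255b, Caln1, Rlbp1, Nkx2-1, Lmcd1, Ldb2, Unc13c, Asic4, Dcx, Scn2b, Npbwr1, Iqcj, Iqschfp, Htr1a, Kcnmb2, Pdpn, Tmem200c, Syt4, Gm3488, Slc7a14, D13Ertd608e, Olfr1033, Tctex1d1, Mdk, Prob1, Gm3248, Thsd7b, Cacna2d4, Lrtm2, Rbfox1, D830030K20Rik, Cbln4, Slc38a11, Dkk1, Oprl1 and Sostdc1. Their values ran from 1915 bp at Nkx6-1 to 1009 bp at Sostdc1. Iqcj and Iqschfp share 1 start region, as do Cacna2d4 and Lrtm2, so each pair rests on 1 peak. Gm3488, Gm3248 and D830030K20Rik lie among near copies of each other on chromosome 14, where reads placed uniquely are uncertain.

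The gained lncRNAs with the widest H3K4me3 were Gm32036 with 0 bp in NSCs and 2852 bp in OPCs, Gm14114 with 2429 bp, A330008L17Rik with 2293 bp, Gm20387 with 1845 bp and Gm12371 with 1818 bp in OPCs and 0 in NSCs. A330008L17Rik starts beside Cdh8, Gm20387 beside Grm7 and Gm32036 beside a TSS of Elmo1, which had 0 bp in NSCs and 2741 bp in OPCs. Each pair lies in 1 peak, so the mark cannot be given to 1 gene of a pair. Of the 5, Gm32036 kept its call with a fold enrichment above 5 asked of both lists.

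Genes covered in both stages with the largest difference in favour of OPCs were Galnt13, Rnf43, Xkr4, Tmem132d and Trnp1. Galnt13, a glycosyltransferase, had 219 bp in NSCs and 3044 bp in OPCs. Rnf43, a ubiquitin ligase that restrains WNT receptors, had 1528 and 4000 bp, Xkr4 1022 and 3487 bp, Tmem132d 162 and 2345 bp, and Trnp1 1113 and 3121 bp. In Galnt13 and Tmem132d the NSC value came from a single narrow peak, of 219 and 162 bp, with a fold enrichment of 3.51 and 3.03. These genes would count as gained if such narrow peaks were left out.

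Lost protein-coding genes were led by Col4a5, a chain of basement membrane collagen, with 4000 bp in NSCs and 0 in OPCs, under a peak of 5907 bp with a fold enrichment of 4.33 (chromosome X, 141472559 to 141478465). Its neighbour Col4a6 starts in the same peak. Ephb4, a receptor for ephrin-B ligands, had 3737 bp in NSCs and 0 in OPCs, Tbx2, a transcription factor, 3355 bp, Limd1, a LIM domain scaffold, 3323 bp, and Igfbp4, which binds insulin-like growth factors, 3267 bp. Ebf3, a transcription factor of neuronal differentiation, had 3245 bp, Mab21l2 3237 bp, Gm36079 3175 bp, Tcirg1, a subunit of the proton pump of lysosomes, 3033 bp, and Eva1c 2972 bp, each with 0 in OPCs. The Mab21l2 peak also covers a TSS of Lrba. Of these 10, 5 lost the call (Col4a5, Tbx2, Igfbp4, Gm36079 and Tcirg1) with a fold enrichment above 5, since their NSC peaks fell out, and 4 of those 5 (all but Igfbp4) with an NSC list as long as the OPC list. Ephb4, Limd1, Ebf3, Mab21l2 and Eva1c kept it in both, and Eva1c lost it when the annotated gene start alone was used.

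Lost lncRNAs were led by Six3os1, the antisense neighbour of the forebrain gene Six3, with 4000 bp in NSCs and 0 in OPCs. Its NSC peak of 12076 bp also reaches Six3, which had 1180 bp in OPCs, so the mark cannot be given to 1 of them. The next were 2610027K06Rik with 3336 bp, which starts in the same peak as Tbx2, Pvt1, the neighbour of Myc, with 3322 bp, B230323A14Rik with 2700 bp and 9330188P03Rik with 2692 bp in NSCs and 0 in OPCs. Among genes covered in both stages large differences in favour of NSCs were at Tmem176b with 4000 bp in NSCs and 352 bp in OPCs, Rcor2, a corepressor of neuronal genes, with 4000 and 370 bp, Lzts2 with 4000 and 470 bp, and Gmeb1 with 3725 and 203 bp. In these 4 the OPC value was 1 narrow peak of 203 to 470 bp.

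OPC identity genes as a group were not narrower in OPCs, while most genes were, and single members went either way. Of 22 listed genes, 19 were covered in both stages, 1 was gained, none was lost and 2 (Neu4 and Matn4) were covered in neither. Covered bp were higher in OPCs at 10 of the 20 covered genes, against 9.81% of all covered genes, and 19 of 20 lay above the median difference of all genes. The list was chosen with earlier results known, and the study itself names Gpr17, Sox10, Olig2 and Nkx2-2 for these marks. The comparison with all genes therefore describes the list and is no test of it. The median difference was 17 bp against -663 bp for all covered genes. It was 105.5 bp both with a fold enrichment above 5 and with as many NSC as OPC peaks, against -777 and -640 bp. The second setting shortens the NSC list alone and can only raise a gene's difference. A difference of at least 1000 bp in favour of OPCs was found at 5 of the 22 genes, 20 of them covered. Among all genes it was found at 179 of the 17182 covered in either stage (0.558% of all genes).

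The 5 were Gpr17, Sox10, Tmem100, Pdgfra and Cspg4. Sox10, the transcription factor that drives myelin genes, had 201 bp in NSCs and 2080 bp in OPCs, and its peak there was 6336 bp wide with a fold enrichment of 8.88. Pdgfra, the growth factor receptor by which the OPCs were captured, had 2664 and 4000 bp (equal in a window of 1 kb on each side, which both stages fill), Cspg4, which encodes NG2, 1382 and 2678 bp, and Tmem100 578 and 2102 bp. Most lineage transcription factors were already wide in NSCs. Olig2 had 4000 bp in both stages, a full window, under a peak of 9688 bp in NSCs and 8705 bp in OPCs. Sox6 had 4000 bp in both, Olig1 2311 and 2069 bp, Sox8 3657 and 3463 bp and Nkx2-2 3029 and 2711 bp. Yy1, a general zinc finger factor, had 4000 and 3859 bp.

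The genes of differentiating oligodendrocytes and myelin were covered only in part in both stages. Of 25 genes, 15 were covered in NSCs and 12 in OPCs. The shares were 64.3% and 60.8% of protein-coding genes, and 52.3% and 48.7% of all genes with lncRNAs. With all listed peaks none of the 25 was gained and 3 were lost. With a fold enrichment above 3.5, 1 was gained and 1 lost, and above 5, 1 and 3. With as many NSC as OPC peaks 3 were gained and none lost, so the lower count in OPCs did not hold in every setting. In neither stage 10 were covered, among them Mag, Mog and Mobp. Mbp, myelin basic protein, had 873 bp in NSCs and 1200 bp in OPCs, Myrf, the regulator of myelin genes, 454 and 629 bp, and Zfp488, a factor of oligodendrocyte differentiation, 1652 and 1749 bp. Cnp had 3795 and 1541 bp, and Bcas1, a marker of oligodendrocytes starting to make myelin, 2581 and 1196 bp. Nkx6-2 had 1757 bp in NSCs and 0 in OPCs, a call that was lost with a fold enrichment above 5 and with an NSC list as long as the OPC list. The median difference of the 15 covered genes was -39 bp, and its sign turned with a fold enrichment above 3.5 (97 bp) and with the shorter NSC list (146.5 bp), and it was -82.5 bp above 5.

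With all listed peaks, neural stem cell genes were all covered in NSCs and all narrower in OPCs. Of 24 genes, 23 were covered in both and Fut4, which makes the stem cell antigen SSEA-1, was lost, with 1259 and 0 bp. Its call ended with a fold enrichment above 5 and with an NSC list as long as the OPC list. Above 5 the list had 1 gained and 5 lost genes, and 1 gene was higher in OPCs. Among all 32093 genes, 14952 of them covered in that setting, 578 were gained and 2424 lost. With as many NSC as OPC peaks none of the stem cell genes was gained, lost or higher. The median difference was -825 bp, and 10 of 24 genes were lower by at least 1000 bp. So were 5234 of the 17182 genes covered in either stage (16.3% of all genes) and 15 of 22 housekeeping genes. Nes, an intermediate filament of neural stem cells, had 3388 bp in NSCs and 777 bp in OPCs, Sox1 3238 and 619 bp, Vim 4000 and 2115 bp, Fabp7 3875 and 1988 bp and Prom1 2557 and 1446 bp. Sox2 with 4000 and 3900 bp, Hes1 with 4000 and 3708 bp, Id4 with 2587 and 2409 bp and Hes5 with 2144 and 2040 bp differed little.

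Markers of other cells show what else each library could hold. Of 18 microglial genes, 15 were covered in neither stage, among them Aif1, Cx3cr1, P2ry12, Tmem119 and Ptprc, and Csf1r had 0 bp in NSCs and 230 bp in OPCs. The summed length over the list was 2021 bp in NSCs and 962 bp in OPCs. Of 16 endothelial genes, 6 were covered in both stages and 10 in neither, among the latter Cldn5, Pecam1 and Cdh5, with sums of 6096 and 4662 bp. Of 18 pericyte and fibroblast genes, 10 were covered in NSCs and 9 in OPCs, with sums of 16631 and 10499 bp. In this list 7 genes were covered in neither, among them Pdgfrb, Rgs5 and Col3a1. Of 14 astrocyte genes, 10 were covered in NSCs and 7 in OPCs, and Gfap, Aqp4 and Gjb6 were at 0 in both. Aldoc with 2208 and 0 bp and Mlc1 with 1924 and 0 bp were lost, and S100b, which OPCs also use, had 0 and 930 bp. Xist was covered in both libraries, with 2786 and 1278 bp, and so were the Y-linked genes Uty with 1439 and 2161 bp and Eif2s3y with 913 and 1274 bp. The part of other cells in the differences was not tested.

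**Figure D4:**
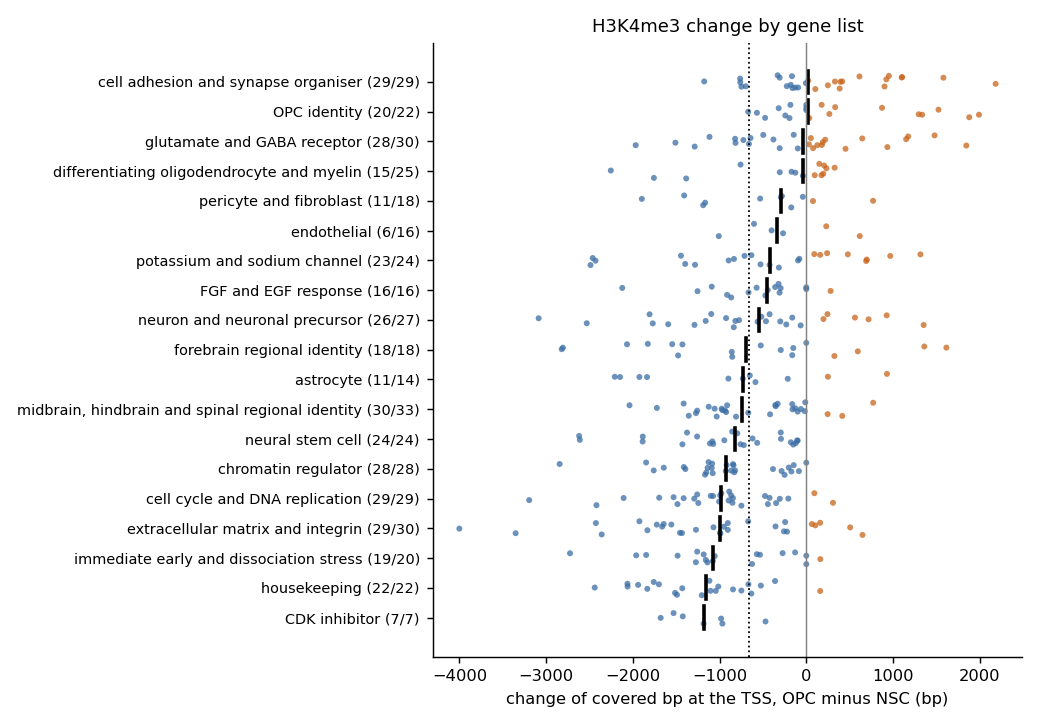
Difference of covered bp at the TSS, OPC minus NSC (horizontal axis), for each gene of the fixed lists that is covered in either stage (points, blue lower and orange higher in OPCs), with the median of each list as a black bar; numbers in brackets are genes covered in either stage of those listed. The dotted line is the median of all covered genes, -663 bp; the adhesion and synapse list (22 bp) and the OPC identity list (17 bp) have the highest medians, and the housekeeping (-1161 bp) and CDK inhibitor lists (-1184 bp) the lowest. The list of sex-linked genes is left out, as are the microglial and germline lists, with 3 covered genes each.

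Genes for cell adhesion and synapse organisation stood beside the OPC genes. This list too was chosen with earlier results known. The study lists its members Tmem132d and Cadm2 among genes with both marks in NSCs and H3K4me3 alone later. The values describe the list and do not test it. Of 29 genes, 28 were covered in both stages, 15 were higher in OPCs, and 24 lay above the median of all genes. The median difference was 22 bp, and 104 bp with a fold enrichment above 5. It was 63 bp with as many NSC as OPC peaks, a setting that can only raise a gene's difference. Beside Tmem132d, a difference of at least 1000 bp in favour of OPCs was found at Lrrtm3, a partner of neurexins, with 1072 and 2653 bp, Cntnap2 with 281 and 1386 bp, and Cadm3 with 993 and 2093 bp. This is 4 of 29, against 179 of the 17182 genes covered in either stage (0.558% of all genes). Negr1 had 2971 and 3894 bp, Cntn1 1791 and 2743 bp and Dscam 1659 and 2561 bp. Csmd1 was the one gene lower by at least 1000 bp, with 3575 and 2398 bp.

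Receptors for glutamate and GABA, by which OPCs sense neuronal activity, moved in both directions. Of 30 genes, 25 were covered in both stages, 2 were gained, among them Grm7 (0 and 1845 bp), Grin2c (816 and 0 bp) was lost, and Gabra3 and Gabra5 were covered in neither. Covered bp were higher in OPCs at 14 of 28 genes. Gria1 had 486 and 1421 bp and Gabrg3 727 and 1372 bp, while Grm5 had 2388 and 421 bp, Grm3 3526 and 2017 bp and Grin2b 2234 and 947 bp. The median difference was -34 bp, or 53 bp with the shorter NSC list. The Grm7 peak is shared with Gm20387 and fell out with a fold enrichment above 5. Among 24 potassium and sodium channel genes, 8 of the 23 covered were higher in OPCs, with a median difference of -424 bp, which was -205.5 bp with a fold enrichment above 5 and -95 bp with as many NSC as OPC peaks. Scn3a had 922 and 2238 bp and Kcnip4 303 and 1271 bp, and Kcnq5 had 3989 and 1501 bp.

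Several extracellular matrix and integrin genes had little or no H3K4me3 left in OPCs. Of 30 genes, 24 were covered in both, 5 were lost and Col9a1 was covered in neither. Among all genes 1563 of the 17182 covered in either stage were lost (4.87% of all genes). In the matrix list 10 were lost and 1 was gained with a fold enrichment above 5, and 3 were lost and 2 gained with as many NSC as OPC peaks. Lower by at least 1000 bp were 5234 of the 17182 genes covered in either stage (16.3% of all genes) and 15 of 22 housekeeping genes. In the matrix list 14 of 30 were, with a median difference of -994 bp, so the list did not stand apart by width alone. The laminin receptor genes Itga7 with 3677 and 326 bp and Itga6 with 2753 and 327 bp, Sparc, a matrix glycoprotein, with 2359 and 0 bp, Cd44, the hyaluronan receptor, with 2085 and 253 bp and Itga2 with 1556 and 0 bp were among them. Itga6 depends on the TSS: at the annotated gene start alone its difference was 327 bp in favour of OPCs, and that of Sparc was 0. Tnr, a matrix protein of oligodendrocytes, had 1360 and 2008 bp, Lama4 713 and 1219 bp, and Col11a1 and Itgb8 were within 105 bp between stages.

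Lists of general genes followed the housekeeping genes. The 29 cell cycle and DNA replication genes were all covered in both stages, with a median difference of -980 bp, as were the 28 chromatin regulators with -924 bp and the 7 CDK inhibitors with -1184 bp. Of 20 immediate early and stress genes, 19 were covered in both, with a median of -1077 bp, and Fos had 4000 and 2154 bp and Jun 4000 bp in both. The 16 genes that answer FGF and EGF, the factors of the NSC medium, were all covered in both, with a median of -458 bp. Among them Spry4 was wider in OPCs, with 3007 and 3287 bp, and Etv1 and Dusp6 filled the window in both stages, with 4000 bp. Of 16 germline genes, 13 were covered in neither.

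Regional identity genes were widely covered in both stages. The NSCs came from cortex and the OPCs from brains, so region and stage cannot be told apart in these lists. Of 18 forebrain genes, 17 were covered in both stages and Nkx2-1, a factor of the ventral forebrain, was gained, with 0 and 1615 bp. Gsx1 had 2640 and 4000 bp and Lhx6 545 and 1139 bp, while Six3 had 4000 and 1180 bp and Otx2 4000 and 1194 bp. Nr2f1 with 4000 bp in both and Nr2f2 with 4000 and 3838 bp were wide throughout. Of 33 genes of the midbrain, hindbrain and spinal cord, 24 were covered in both and 5, among them Hoxa2 with 924 and 0 bp, were lost. The median differences were -690 and -740 bp with all peaks. With as many NSC as OPC peaks they were -384.5 and -353.5 bp, against -640 bp for all genes, and the second list then had 5 gained and 3 lost genes. The first was -337 bp with a fold enrichment above 5 and the second -357 bp above 3.5.

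Neuronal genes were mixed. Of 27 genes, 18 were covered in both, 3 were gained and 5 were lost. Among the 17182 genes covered in either stage 410 were gained and 1563 lost (1.28% and 4.87% of all genes). With as many NSC as OPC peaks, 6 of the neuronal list were gained and 2 lost. Dcx, a microtubule protein of young neurons, had 0 and 1353 bp and Stmn2 0 and 927 bp. Slc17a7, a vesicular glutamate transporter, had 2531 and 0 bp and Tbr1, a factor of cortical neurons, 1289 and 0 bp. Both losses ended with a fold enrichment above 5, and that of Slc17a7 also with an NSC list as long as the OPC list. Eomes, a factor of cortical intermediate progenitors, had 3527 and 441 bp.

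Some genes covered in both stages differed at a second TSS. At 38 of the 13055 protein-coding genes covered in both (0.291%) a TSS had at least 1000 bp in OPCs and 0 in NSCs, and at 177 (1.36%) the reverse. These genes were chosen after their values were seen. The largest of the NSC kind was Nfib, a factor of glial development, where the window of a TSS on chromosome 4 at 82499316 (minus strand) had 4000 bp in NSCs and 0 in OPCs, while another of its windows was full in both stages. Zbtb18 at 177445631 on chromosome 1 (plus strand) had 3968 and 0 bp, and Abl1 at 31760173 on chromosome 2 (plus strand) 3568 and 0 bp.

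The H3K27me3, OLIG2 and NFO lists played no part in sorting the genes and were set beside them. H3K27me3 is the repressive mark laid down by the Polycomb complex. In OPCs a H3K27me3 peak lay within 2 kb of a TSS at 206 of the 412 lost genes of at least 1000 bp (50%, interval 45.1% to 54.9%), at 19 of the 67 gained genes (28.4%, interval 18.01% to 40.7%) and at 2807 of the 15209 genes covered in both (18.5%, interval 17.8% to 19.1%). In NSCs the shares were 33.0% (interval 28.5% to 37.8%), 14.9% (interval 7.40% to 25.7%) and 17.0% (interval 16.4% to 17.6%). Over all genes they were 14.8% in OPCs and 13.4% in NSCs. Among named genes, Sox10, Sntg1, Slitrk4 and Tmem132d had H3K27me3 in NSCs and none in OPCs, and so had Zfp488, Trnp1, the lost lncRNA Pvt1 and Gmeb1. Of the lost genes Ephb4 and Eva1c and of the gained genes Cdh8, Tmem132c, A330008L17Rik and Gm12371 had it in OPCs and none in NSCs, so named genes of both kinds went either way. With an NSC list as long as the OPC list, the shares in NSCs were 27.03% for lost and 31.5% for gained genes, and in OPCs 44.6% and 33.6%, so the low share of gained genes in NSCs did not hold.

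Gained genes more often than lost genes had H3K4me3 in NFOs. An H3K4me3 peak of the NFO list lay near a TSS at 41 of the 67 gained genes (61.2%, interval 48.5% to 72.9%), at 72 of the 412 lost genes (17.5%, interval 13.9% to 21.5%), at 10640 of the 15209 genes covered in both (70.0%, interval 69.2% to 70.7%) and at 1.94% of genes covered in neither. With the shorter NSC list the first 2 shares were 59.4% and 23.0%. In NFOs Sntg1 had 3311 bp, Akap6 2400 bp and Gpr17 1925 bp. NFOs were, like OPCs, purified by immunopanning and read in pairs, so this list shares its preparation with the OPC list.

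OLIG2 peaks of OPCs lay at gained and lost genes about as often as at all genes. They were found within 2 kb of a TSS at 4 of the 67 gained genes (5.97%, interval 1.65% to 14.6%), 18 of the 412 lost genes (4.37%, interval 2.61% to 6.82%) and 1371 of the 15209 genes covered in both (9.01%, interval 8.56% to 9.48%), against 5.12% of all genes. Counted from 5 kb upstream to the gene end, OLIG2 was found at 23.9%, 12.9% and 22.0% of these groups and 13.8% of all genes, a count that grows with gene length. The median length of protein-coding genes was 25.2 kb in the 51 gained, 15.6 kb in the 329 lost and 26.2 kb in the genes covered in both. Of the 10 leading gained genes Cdh8 alone had an OLIG2 peak near a TSS, and of the 10 leading lost genes Igfbp4 and Eva1c did.

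**Figure D5:**
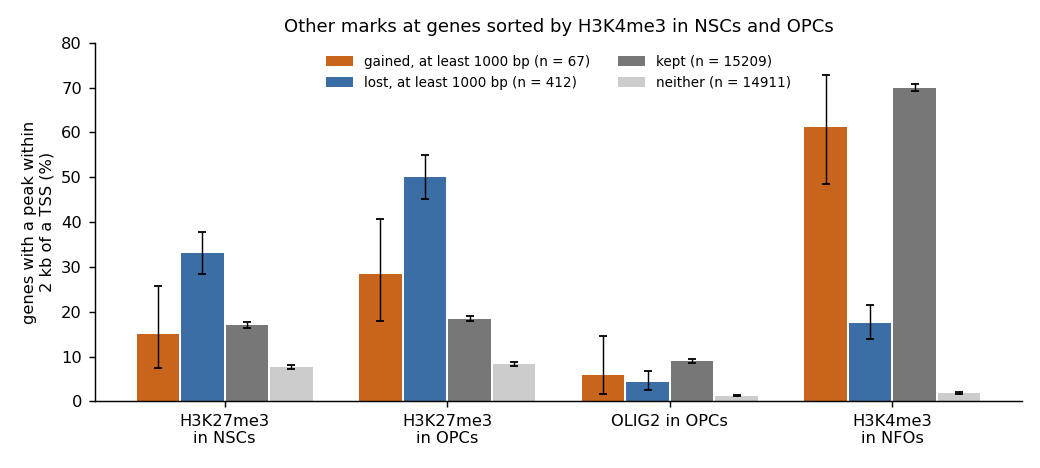
Share of genes (vertical axis, percent) with a called peak of H3K27me3 in NSCs or OPCs, OLIG2 in OPCs or H3K4me3 in NFOs within 2 kb of a TSS, for 67 gained, 412 lost, 15209 genes covered in both (kept) and 14911 covered in neither; error bars are exact binomial 95% intervals. Lost genes have the highest share with H3K27me3 in OPCs (50%) and a low share with H3K4me3 in NFOs (17.5%).

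Of the 3 widest peaks on the assembled chromosomes of each list, all but 1 were common to both stages over most of their length. The widest NSC peak there spanned 38411 bp on chromosome 9 (2999970 to 3038380) at the gene model Gm10722, and 95.9% of it was covered in OPCs. Its fold enrichment of 2.39 lay below the 3.5 that the study asked of peaks, and so did the 2.67 of the widest OPC peak, at Gm10721 in the same region. Both fall out under that filter. The next, of 28759 bp at C130071C03Rik on chromosome 13 (83713215 to 83741973), had a fold enrichment of 12.3 and was 89.8% covered in OPCs, where its counterpart spanned 25826 bp. The third, of 26246 bp on chromosome 8, lay 33011 bp from its nearest TSS, that of Rhou, and only 10.2% of it was covered in OPCs. In OPCs the third, of 13533 bp at the lncRNA Pantr1 on chromosome 1 (42690205 to 42703737), lay wholly in NSC peaks.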

How the data were processed

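Chromatin immunoprecipitation and sequencing was performed by the authors on 1 library per condition. Reads were aligned to mm10 with Bowtie2, uniquely mapped reads were kept, broad peaks were called with MACS2 and blacklisted regions were removed. Tool versions are not given in the sources used here. The deposited lists give each peak's position with its fold enrichment (a ratio over control), −log10 p and −log10 q, and input libraries were not used here. Peaks were compared with Python 3.11.15, NumPy 2.4.6, pandas 2.3.3 and SciPy 1.17.1, and figures were drawn with Matplotlib 3.10.9. Of the peaks, 104 in NSCs and 84 in OPCs lay off chromosomes 1 to 19, X and Y. The computation of shared peaks and covered bp was tested on simulated peaks. Genes and TSSs came from GENCODE M21. RefSeq promoters were matched to genes by symbol, chromosome and strand, with a start within 2 kb of the gene's TSS. No H3K4me3 peak of the 2 lists ran past a chromosome end of GRCm38.

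Named genes were the 10 gained and 10 lost protein-coding genes with the most covered bp and 0 in the other stage (1 gene per peak), 5 lncRNAs each way, the 5 largest differences each way among protein-coding genes covered in both stages, the 3 widest peaks of each list, genes the study names for these marks, and members of 22 gene lists. Lists and members were chosen with earlier results of these data known. AC140285.1, one of the study's genes, was not analysed here. Alternatives changed the peak filter, list length, joining of peaks, overlap, TSS and window. Those for gene lists and other marks were chosen after the data were seen. Some genes that the rule names are not reported here.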

Additional observations from a re-analysis of the deposited data

How the results depend on the processing

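No paired analysis was possible because each stage has 1 library, and no library could be left out. The share of NSC peaks with an OPC peak was 53.4% with a fold enrichment above 3.5 in both lists, 66.7% above 5, 71.0% with as many NSC as OPC peaks, 46.5% with peaks within 1 kb joined, 71.2% without peaks under 500 bp and 31.8% when most of a peak had to be covered. In the same order the share of OPC peaks was 83.2%, 89.0% and 73.0%, not moved by joining, then 91.8% and 79.2%, and 83.4% on autosomes. The share of NSC length covered in OPCs was 52.9%, 52.0%, 57.2%, 48.9% and 53.8%, and 50.5% on autosomes, and that of OPC length in NSCs 89.3%, 91.1%, 85.1%, 89.1% and 90.8%, and 89.2% on autosomes. Gained genes numbered 1321 with as many NSC as OPC peaks, and lost genes 619, or 2424 with a fold enrichment above 5. At 1000 bp or more, gained genes numbered 101 above 3.5, 207 above 5, 298 with as many peaks and 125 without peaks under 500 bp, and lost genes 1891 above 5, 222 with as many peaks and 998 without peaks under 500 bp. The median difference in genes covered in both was -710 bp above 5, -729 bp with joined peaks, -680 bp without narrow peaks, -666 bp at the annotated start, -343 bp in a window of 1 kb on each side and -715 bp in protein-coding genes. Differences turned sign at Gad2 (1016 bp), Kcna1 (241 bp) and Pax5 (488 bp) above 5, at Cdkn1c (380 bp), Gad2 (1016 bp), Irx2 (2763 bp), Kcna1 (984 bp) and Neurog2 (890 bp) with as many peaks, at Itga6 (327 bp) at the annotated start and at Kdm5c (32 bp) in the 1 kb window. A shorter list removes peaks by construction, and the other causes were not tested. Which list length matches the depth is unknown, so the balance of gained and lost genes rests on that choice: lost outnumbered gained with all peaks, and gained outnumbered lost with as many peaks.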
